A study of Mus musculus with 42 samples.

Results

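Matrix proteases and their inhibitors were taken as every gene in the count table whose symbol is Mmp (matrix metalloproteinase), Timp (tissue inhibitor of metalloproteinases), Adamts (secreted metalloproteinase with thrombospondin repeats) or Adamtsl (ADAMTS-like protein) followed by a number and at most 1 letter. The rule found 51 of 45317 gene entries, of which 23 were Mmp, 4 Timp, 19 Adamts and 5 Adamtsl genes. In these cells 27 of the 51 had enough reads to be tested, which took about 2.31 CPM (gene counts scaled by library size) in at least 6 of 24 libraries. Another 17 had at least 1 read but stayed under that minimum, and 7 had no read in any library. The study compared bone marrow mesenchymal stromal cells (MSCs) that had been treated for 48 h. They derive from long-bone marrow of C57BL/6 mice, were bought at passage 6 and were used at passage 9 to 10, so all groups share 1 commercial source and have been expanded in culture. Each RNA group held 6 libraries: 0.1% DMSO, the solvent control; 100 nM rosiglitazone, an agonist of PPARγ; 100 nM AGN194204, an agonist selective for retinoid X receptors (RXR); and 50 nM tributyltin (TBT), an organotin that activates both RXR and PPARγ. Histone H3K4me3 and H3K27me3 were mapped by ChIP-seq in 4 libraries each from DMSO-treated and TBT-treated cells. The labels do not tie replicates to separate animals or cultures, so p-values measure the spread between these libraries, which may be technical.

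Metalloproteinases of these families are zinc enzymes that cut collagens, proteoglycans and other parts of the matrix around cells, and they also release growth factors and receptors. Most are made as inactive precursors. TIMPs hold the active enzymes in check, and ADAMTS-like proteins resemble ADAMTS enzymes without a protease domain. In marrow stroma and fat, matrix turnover by these enzymes, above all by the membrane protease Mmp14, accompanies the change of stromal cells into adipocytes.

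The libraries held 3801758 to 5347365 gene counts each, and members summed to 7461 to 10977 of them. Most markers of mesenchymal stroma matched the label, with 13 of 14 tested and summed levels of 4178 to 4949 CPM over all libraries. The exception was Lepr, which had reads but stayed under the count minimum. Single stromal markers moved with treatment: 3 rose and 2 fell with TBT, 5 rose and 3 fell with AGN194204, and 1 fell with rosiglitazone (edgeR). These are 38.5%, 61.5% and 7.69% of the 13 tested, where 28.9%, 24.1% and 1.04% of all genes were called. Thy1 fell by 0.58 ± 0.072 with TBT and 0.81 ± 0.073 with AGN194204 on the log2 scale, Cd44 fell by 0.41 ± 0.030 with both, and Pdgfrb rose by 0.35 ± 0.045 and 0.38 ± 0.045. Of 7 adipocyte markers only Fabp4 was tested. The adipocyte list summed to 1.40 to 3.78 CPM in DMSO, 16.9 to 21.9 with rosiglitazone, 18.2 to 26.7 with AGN194204 and 32.3 to 45.2 with TBT, with Adipoq and Lep at or near 0 in every group. The 7 osteoblast and osteocyte markers summed to 9.09 to 17.9 CPM over all libraries. Of the 2 tested, Alpl rose with AGN194204 (1.29 ± 0.30, adjusted p = 0.00107) and was 0.37 ± 0.33 with TBT (adjusted p = 0.428), and Phex passed with neither. Summed levels of 10 macrophage and osteoclast markers stayed between 7.76 and 16.1 CPM, with Adgre1, Calcr and Tyrobp at 0, and 8 granulocyte markers reached at most 1.13 CPM. Of 6 endothelial markers, at summed levels of 1.51 to 8.91 CPM, only Pecam1 was tested, and it fell with AGN194204 (log2 fold change -1.02, adjusted p = 0.0043, edgeR). In bulk RNA, fewer cells of a type and less RNA per cell cannot be told apart, and the part of the adipocyte, stromal, osteoblast and endothelial markers in the results was not tested.

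RefSeq promoter sequences (assembly GRCm38.p6, 250 bases before to 50 after the annotated start, written in the direction of the gene) were held for 36 of the 51 members, with 39 starts. The 7 printed here belong to the members on which the results turn: Mmp13 and Mmp3 stand for the genes that these cells hardly use, and the other 5 changed with treatment. Capitals mark 3 motifs on either strand. The AP-1 site was searched as TGANTCA. The TATA box was searched with the letters TATAAA. The GC box was searched as GGGCGG. Neighbouring matches of the same motif can overlap. The Mmp13 start lies at chr9:7272264-7272563 on the plus strand. The Mmp3 start lies at chr9:7445572-7445871 on the plus strand. Adamts1 is at chr16:85803064-85803363 on the minus strand, and Adamts14 at chr10:61273370-61273669 on the minus strand. Mmp15 is at chr8:95352046-95352345 on the plus strand, Timp1 at chrX:20869916-20870215 on the plus strand, and Timp3 at chr10:86300162-86300461 on the plus strand.
Mmp13: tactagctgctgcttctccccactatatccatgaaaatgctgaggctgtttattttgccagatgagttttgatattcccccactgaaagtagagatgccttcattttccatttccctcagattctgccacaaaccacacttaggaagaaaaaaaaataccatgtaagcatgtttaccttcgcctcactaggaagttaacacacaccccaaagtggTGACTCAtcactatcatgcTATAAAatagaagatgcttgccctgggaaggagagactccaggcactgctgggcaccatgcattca
Mmp3: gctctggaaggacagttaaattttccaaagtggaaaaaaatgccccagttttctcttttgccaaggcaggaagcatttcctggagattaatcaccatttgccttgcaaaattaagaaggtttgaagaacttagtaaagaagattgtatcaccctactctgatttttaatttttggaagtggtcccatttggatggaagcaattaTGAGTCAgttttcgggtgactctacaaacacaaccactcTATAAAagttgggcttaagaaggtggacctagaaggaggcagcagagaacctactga
Adamts1: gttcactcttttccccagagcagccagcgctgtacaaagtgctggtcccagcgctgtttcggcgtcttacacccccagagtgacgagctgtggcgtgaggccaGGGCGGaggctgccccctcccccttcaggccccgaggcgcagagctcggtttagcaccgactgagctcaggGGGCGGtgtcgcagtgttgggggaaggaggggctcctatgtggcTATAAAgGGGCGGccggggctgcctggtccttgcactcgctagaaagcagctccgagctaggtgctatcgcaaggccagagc
Adamts14: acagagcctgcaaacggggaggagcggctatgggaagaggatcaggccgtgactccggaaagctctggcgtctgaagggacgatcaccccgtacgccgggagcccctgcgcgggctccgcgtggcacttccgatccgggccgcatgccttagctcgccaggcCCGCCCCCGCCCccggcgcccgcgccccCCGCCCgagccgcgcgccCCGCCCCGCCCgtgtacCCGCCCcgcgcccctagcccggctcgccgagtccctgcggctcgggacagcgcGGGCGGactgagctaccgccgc
Mmp15: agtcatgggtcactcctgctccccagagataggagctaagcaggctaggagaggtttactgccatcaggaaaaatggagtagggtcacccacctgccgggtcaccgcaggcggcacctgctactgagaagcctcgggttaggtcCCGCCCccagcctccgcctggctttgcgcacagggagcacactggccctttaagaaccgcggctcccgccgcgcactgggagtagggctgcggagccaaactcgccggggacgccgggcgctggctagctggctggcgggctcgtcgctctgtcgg
Timp1: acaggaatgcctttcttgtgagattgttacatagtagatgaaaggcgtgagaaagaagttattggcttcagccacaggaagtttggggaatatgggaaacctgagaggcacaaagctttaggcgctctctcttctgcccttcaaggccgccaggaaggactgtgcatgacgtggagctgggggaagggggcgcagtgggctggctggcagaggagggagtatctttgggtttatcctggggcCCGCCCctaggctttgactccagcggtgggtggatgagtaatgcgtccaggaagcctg
Timp3: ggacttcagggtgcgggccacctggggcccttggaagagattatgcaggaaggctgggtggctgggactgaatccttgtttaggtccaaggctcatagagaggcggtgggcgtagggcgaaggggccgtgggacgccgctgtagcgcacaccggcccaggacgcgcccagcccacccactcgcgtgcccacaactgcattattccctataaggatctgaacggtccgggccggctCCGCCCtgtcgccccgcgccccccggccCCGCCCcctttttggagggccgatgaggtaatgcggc

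The Mmp13 and Mmp3 promoters hold an AP-1 and a TATA match and a single CG dinucleotide each, whereas Adamts14 has 7 GC boxes and 44 CG dinucleotides. The Timp1 window holds 8 CG dinucleotides, Adamts1 18, Mmp15 22 and Timp3 24. Over 32851 promoters of the same length in the table, 7.81% held TGANTCA, 13.6% TATAAA and 35.7% GGGCGG. Among the 39 member starts, 8 (20.5%) held TGANTCA, 12 (30.8%) TATAAA and 22 (56.4%) GGGCGG. The CCAAT box, also searched on both strands, was found at 10 (25.6%) against 37.4%. The letters that RXR and its partner receptors recognise, AGGTCA, were found at 5 (12.8%) against 16.3%. Its direct repeats with 1 or 4 bases between were at 0 of the 39 starts and at 0.0396% and 0.0152% of all promoters. A match is only a run of letters in this window and does not show that a factor binds there.

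Which matrix proteases these cells use was read first, from levels across all treatments. Of the 4 collagenases (Mmp1a, Mmp1b, Mmp8, Mmp13) and 2 gelatinases (Mmp2, Mmp9) none reached the minimum, and of the stromelysin and matrilysin group only Mmp11 did, 1 of 4. By contrast 5 of 6 membrane-type MMPs, 3 of 3 procollagen N-proteinases, 3 of 4 TIMPs, 4 of 5 ADAMTS-like genes and 4 of 7 ADAMTS enzymes that cut aggrecan and versican were tested. The 7 genes with no read were Mmp1a, Mmp1b, Mmp7, Mmp8, Mmp12, Mmp20 and Adamts19. The 17 under the minimum had 1 to 168 counts over all 24 libraries, at mean levels of 0.0078 to 1.60 CPM. Levels are not set against each other between genes here, because transcript lengths were not available.

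A cluster of 10 Mmp genes lies at chr9:7272514-7699585, a stretch of 427.1 kb that runs from Mmp13 through Mmp12, Mmp3, Mmp10 and Mmp8 to Mmp7. None of these 10 was tested, 6 had no read, and the other 4 gave 75 counts over all libraries together. Their 12 annotated starts included all 8 member starts with an AP-1 match and 9 of the 12 with a TATA match, and none had a GC box. Among the remaining 27 starts, none had an AP-1 match, 3 had a TATA match and 22 had a GC box. The median number of CG dinucleotides was 1 in the cluster and 22 in the others, against 7 over all promoters.

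The gelatinases stood just under the minimum. Mmp2, which cuts denatured collagen and basement membrane and is activated at the cell surface by Mmp14, had 0, 1.41 and 3.52 CPM (lowest, median and highest library) in DMSO, 0, 1.80 and 2.69 with rosiglitazone, 0, 0.895 and 1.83 with AGN194204 and 0.749, 1.36 and 2.25 with TBT. The groups overlapped throughout. Mmp9, the second gelatinase and the one linked to osteoclasts and granulocytes, had 1.88, 2.12 and 2.75 CPM in DMSO, 0.491, 1.14 and 1.79 with rosiglitazone, 1.37, 2.08 and 2.47 with AGN194204 and 0.374, 0.747 and 2.00 with TBT. Every rosiglitazone library lay below every DMSO library, as did 5 of the 6 TBT libraries, on 31 and 24 counts in all against 60 in DMSO. Both genes are named here after their values were seen. With a minimum of 1 CPM on the mean of all libraries in place of the main filter, Mmp9 fell by 1.23 ± 0.35 on the log2 scale with TBT (adjusted p = 0.00775, edgeR), and it was -0.85 ± 0.33 with rosiglitazone (adjusted p = 0.292).

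Against DMSO, TBT raised 11 and lowered 2 of the 27 tested members, AGN194204 raised 10 and lowered 2, and rosiglitazone raised none and lowered 1 (edgeR quasi-likelihood test, adjusted p under 0.05 over all genes). Both higher counts include Mmp15, which reached the count minimum in 2 AGN194204 and 4 TBT libraries and in no other. In fits of the 2 groups alone, where Mmp15 could not be tested, 10 of 25 members were higher with TBT and 9 of 25 with AGN194204. These counts, and the shares and medians that follow, describe the members that passed the filter, not all 51. Over all 12529 genes tested, 15% were higher and 13.9% lower with TBT, 12.8% and 11.3% with AGN194204, and 0.615% and 0.423% with rosiglitazone. The share of tested members called was 48.1% with TBT against 28.9% of all genes, 44.4% against 24.1% with AGN194204, and 3.70% against 1.04% with rosiglitazone. The median log2 fold change over the tested members was 0.16 with TBT, 0.15 with AGN194204 and -0.047 with rosiglitazone. Over all genes it was -0.006, -0.0027 and 0.00037. At an unadjusted p under 0.05, 17, 14 and 5 members passed, where 4820, 4381 and 1413 of all 12529 genes did. DESeq2 called 13 of 29, 12 of 29 and 0 of 30 members, with Mmp9 gained and Adamtsl3 lost with TBT. Over all genes it called 1760 higher and 1559 lower of 13554 with TBT. With AGN194204 it called 1517 and 1263 of 13554, and with rosiglitazone 85 and 52 of 14535. Libraries of the 2 groups did not overlap for 7 members above and 2 below with TBT (11.7% of all genes did not overlap), for 5 above and 2 below with AGN194204 (11.6%) and for no member with rosiglitazone (1.53%).

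These comparisons share the DMSO libraries. Both TBT and AGN194204 called 11 members in the same direction. Adamts12 and Adamts4 passed with TBT alone and Adamts5 with AGN194204 alone, which does not show that the treatments differ in them. With libraries scaled to the added ERCC RNA in place of TMM, TBT raised 11 members and lowered none, AGN194204 raised 5 and lowered 2, and rosiglitazone changed none. The members no longer called were Timp1 and Adamtsl3 with TBT and Adamts2 with rosiglitazone. With AGN194204 they were Adamts5, Adamts9, Mmp14, Mmp15 and Mmp19, at log2 fold changes of 0.16 ± 0.078, 0.30 ± 0.11, 0.15 ± 0.072, 1.48 ± 0.53 and 0.34 ± 0.14 and adjusted p of 0.22, 0.0989, 0.228, 0.0784 and 0.141. Under that scaling the share of higher genes among all called went from 51.8% to 86.0% with TBT and from 53.1% to 75.2% with AGN194204. Summed over all members, the level was 1848 to 1975 CPM in DMSO, 1788 to 1927 with rosiglitazone, 2003 to 2192 with AGN194204 and 2027 to 2150 with TBT, so the last 2 groups lay above both others.

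**Figure D1:**
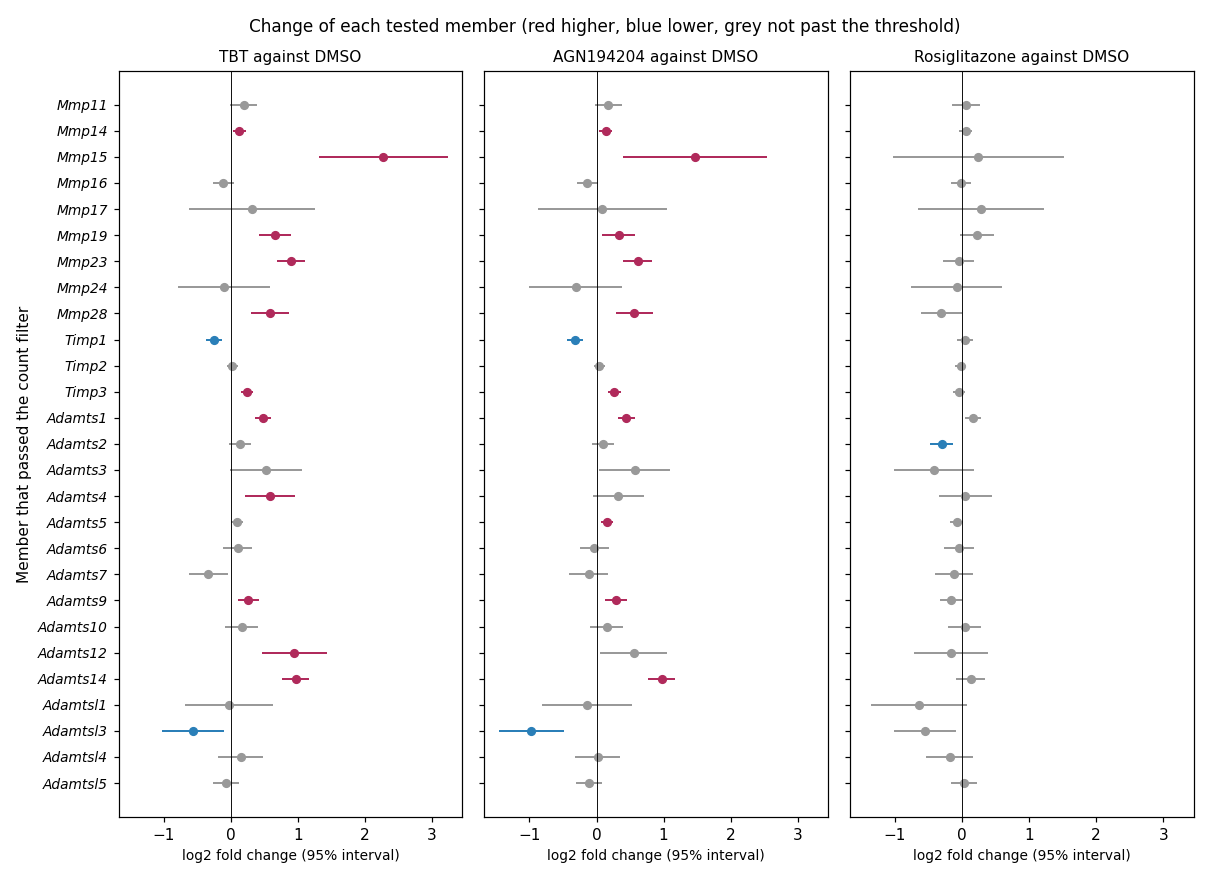
Log2 fold change against DMSO (horizontal axis) with its 95% interval for each of the 27 tested members (vertical axis), in panels for TBT, AGN194204 and rosiglitazone; red marks members called higher, blue lower and grey neither. The TBT and AGN194204 panels hold 11 and 10 red points, and the rosiglitazone panel holds 1 coloured point, Adamts2.

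Procollagen N-proteinases cut the amino-terminal propeptide from fibrillar procollagens so that fibrils can form. Adamts14 (chr10:61197112-61273419) showed the smallest adjusted p of any member with both TBT and AGN194204. It stood at 24.3, 27.2 and 33.8 CPM in DMSO, 24.6, 31.1 and 35.4 with rosiglitazone, 46.5, 57.1 and 59.9 with AGN194204 and 46.9, 55.8 and 65.5 with TBT. Every AGN194204 and TBT library lay above every DMSO and rosiglitazone library. The log2 fold change was 0.97 ± 0.092 (adjusted p = 8.43e-11) with TBT and 0.98 ± 0.092 (adjusted p = 1.09e-10) with AGN194204, and with rosiglitazone it was 0.13 ± 0.10 (adjusted p = 0.674). Adamts2, the main enzyme of this kind for type I procollagen, was the single member called with rosiglitazone: its levels were 80.8, 99.0 and 103 CPM in DMSO and 70.2, 78.5 and 86.5 with rosiglitazone, a change of -0.30 ± 0.079 (adjusted p = 0.0444). These 2 groups overlapped through 1 DMSO library at 80.8 CPM, and leaving out DMSO replicate 4, DMSO replicate 5 or rosiglitazone replicate 2 took the adjusted p to 0.11, 0.111 and 0.11. Adamts2 had a log2 fold change of 0.13 ± 0.076 (adjusted p = 0.192) with TBT and 0.095 ± 0.076 (adjusted p = 0.407) with AGN194204. Adamts3 had 0.52 with TBT and 0.57 with AGN194204 and passed in neither.

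ADAMTS enzymes that cut aggrecan and versican rose in part. With TBT 3 of the 4 tested members of this group rose (Adamts1, Adamts4, Adamts9) and with AGN194204 3 of 4 (Adamts1, Adamts5, Adamts9), where 15% and 12.8% of all genes were higher. Adamts1 (chr16:85793827-85803113), which also binds VEGF, stood at 72.2, 78.3 and 85.3 CPM in DMSO, 80.4, 88.6 and 93.7 with rosiglitazone, 98.8, 105 and 116 with AGN194204 and 99.8, 107 and 119 with TBT. Each AGN194204 and TBT library exceeded each library of the other 2 groups. Its log2 fold change was 0.48 ± 0.053 (adjusted p = 4.42e-09) with TBT, 0.44 ± 0.053 (adjusted p = 3.08e-08) with AGN194204 and 0.16 ± 0.055 (adjusted p = 0.169) with rosiglitazone. Adamts9 had 78.4, 87.5 and 97.2 CPM in DMSO, 88.8, 111 and 121 with AGN194204 and 93.3, 104 and 117 with TBT, and its groups overlapped DMSO. Its change was 0.26 ± 0.072 (adjusted p = 0.00518) with TBT and 0.29 ± 0.072 (adjusted p = 0.00242) with AGN194204.

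Adamts5, the principal aggrecanase of mouse cartilage, was at 207, 217 and 234 CPM in DMSO, 232, 243 and 259 with AGN194204 and 218, 234 and 244 with TBT, which is a small shift between overlapping groups. The log2 fold change was 0.15 ± 0.039 (adjusted p = 0.00276) with AGN194204 and 0.092 ± 0.039 (adjusted p = 0.0744) with TBT. Adamts4, the other classical aggrecanase, was at 4.22, 8.59 and 9.78 CPM in DMSO, 6.50, 9.63 and 13.7 with AGN194204 and 9.92, 11.3 and 17.4 with TBT. All TBT libraries lay above all DMSO libraries, and the change was 0.58 ± 0.18 (adjusted p = 0.0105) with TBT and 0.32 ± 0.18 (adjusted p = 0.205) with AGN194204. The 3 other members of the group, Adamts8, Adamts15 and Adamts20, stayed under the minimum.

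Membrane-type MMPs act on the cell's own surface. Mmp14 (chr14:54431598-54442456), which cuts fibrillar collagen and activates Mmp2, moved little: it was at 214, 226 and 237 CPM in DMSO, 225, 234 and 248 with rosiglitazone, 232, 247 and 270.4 with AGN194204 and 226, 248 and 260.1 with TBT. The groups overlapped, and the log2 fold change was 0.12 ± 0.040 (adjusted p = 0.0163) with TBT, 0.14 ± 0.040 (adjusted p = 0.00869) with AGN194204 and 0.058 ± 0.040 (adjusted p = 0.634) with rosiglitazone. Mmp15 (chr8:95352296-95374293), a relative of Mmp14, was low and had the largest fitted change of the members: 0, 0.585 and 1.27 CPM in DMSO, 0, 0.800 and 1.47 with rosiglitazone, 0.685, 1.38 and 3.63 with AGN194204 and 0.992, 2.76 and 4.90 with TBT. These levels rest on 17, 19, 46 and 82 counts per group, and TBT overlapped DMSO. Its change was 2.27 ± 0.47 (adjusted p = 0.000242) with TBT and 1.47 ± 0.52 (adjusted p = 0.0351) with AGN194204. Only 4 TBT and 2 AGN194204 libraries reached the minimum, so Mmp15 was tested because it was high there, and the AGN194204 call was lost without DMSO replicate 1, 4 or 5 (adjusted p = 0.0648, 0.086 and 0.0503). Mmp16, Mmp17 and Mmp24 were tested and passed in no comparison with DMSO.

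Of 7 MMPs outside the classical groups, 3 were tested. All 3 were called higher with TBT and with AGN194204, where 15% and 12.8% of all genes were higher. Mmp23 (chr4:155650655-155654539), an unusual membrane-anchored MMP, was at 18.4, 20.5 and 26.3 CPM in DMSO, 18.1, 19.2 and 25.5 with rosiglitazone, 27.8, 32.5 and 34.9 with AGN194204 and 32.6, 41.2 and 43.7 with TBT. The TBT and AGN194204 libraries stood clear of DMSO and rosiglitazone, and the change was 0.90 ± 0.097 (adjusted p = 1.95e-09) with TBT and 0.61 ± 0.099 (adjusted p = 8.74e-06) with AGN194204. The annotated span of Mmp23 overlaps that of Mib2, a ubiquitin ligase gene, which rose by 0.44 ± 0.093 with TBT (adjusted p = 0.00037) and by 0.38 ± 0.094 with AGN194204 (adjusted p = 0.00219), and whether reads were counted by strand is not given. Mmp19 (chr10:128790910-128800827), which cuts basement membrane proteins, was at 17.9, 21.9 and 25.4 CPM in DMSO, 20.9, 24.8 and 29.8 with rosiglitazone, 20.3, 29.0 and 30.2 with AGN194204 and 27.3, 33.9 and 41.3 with TBT. Only the TBT libraries were clear of DMSO. Its change was 0.66 ± 0.11 (adjusted p = 1.06e-05) with TBT and 0.33 ± 0.11 (adjusted p = 0.0291) with AGN194204, and the latter lost its call without DMSO replicate 1 (adjusted p = 0.0806) or 5 (0.076). Mmp28, or epilysin, was at 9.55, 10.9 and 13.9 CPM in DMSO, 7.11, 9.23 and 11.2 with rosiglitazone, 14.8, 16.9 and 20.0 with AGN194204 and 14.6, 17 and 20.3 with TBT. Both RXR-activating treatments lay above DMSO without overlap, by 0.58 ± 0.13 (adjusted p = 0.000644) with TBT and 0.57 ± 0.13 (adjusted p = 0.00107) with AGN194204. Mmp11, or stromelysin-3, had a change of 0.19 ± 0.092 (adjusted p = 0.120) with TBT.

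**Figure D2:**
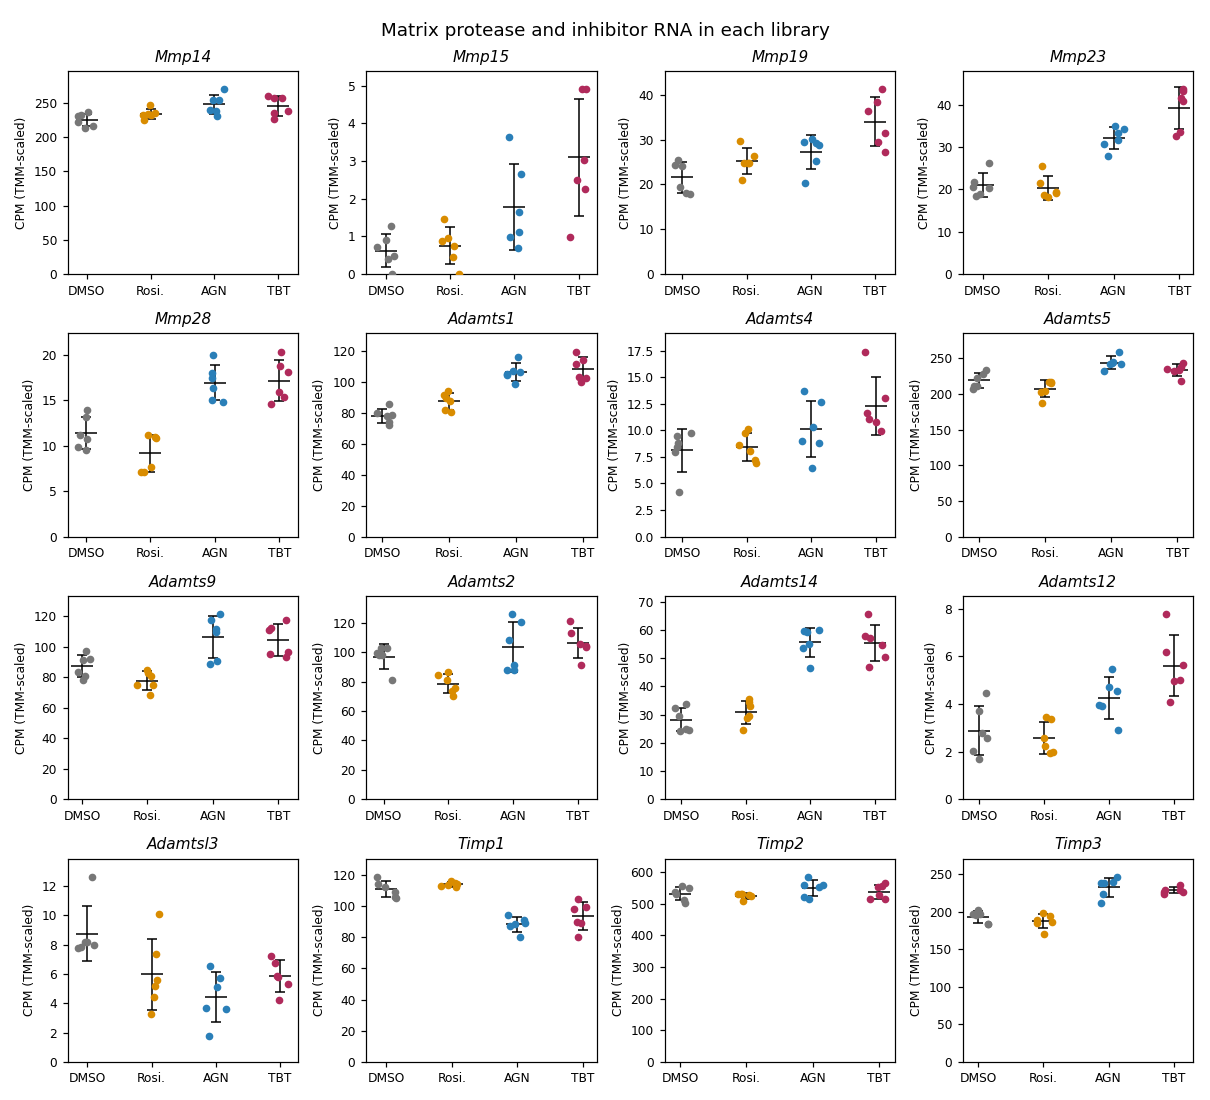
Level of the 16 members named by rule in each of 24 libraries (points; TMM-scaled CPM on linear axes from 0), in 4 treatment groups of 6 (Rosi., rosiglitazone; AGN, AGN194204), with the mean and SD as black bars. Adamts14 moved from 24.3 to 33.8 CPM in DMSO to 46.9 to 65.5 with TBT, and Timp1 went down while Timp3 went up with AGN194204 and TBT.

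The 3 expressed TIMPs went different ways. Timp1 (chrX:20870166-20874737), a soluble inhibitor of most secreted MMPs, fell: it was at 104.9, 110.6 and 118.6 CPM in DMSO, 112, 114 and 116 with rosiglitazone, 80.1, 88.8 and 94.6 with AGN194204 and 80.3, 94.0 and 104.6 with TBT. All AGN194204 and TBT libraries lay below all DMSO and rosiglitazone libraries. The change was -0.25 ± 0.051 (adjusted p = 0.000225) with TBT and -0.33 ± 0.052 (adjusted p = 5.26e-06) with AGN194204. With ERCC scaling the TBT change was -0.17 ± 0.066 (adjusted p = 0.0815), no longer past the threshold. Timp3 (chr10:86300412-86349505), which binds the matrix and inhibits ADAMTS enzymes as well as MMPs, rose: it was at 183, 196 and 202 CPM in DMSO, 170.1, 187 and 198 with rosiglitazone, 212, 238 and 246 with AGN194204 and 224, 228 and 235 with TBT, again without overlap. Its change was 0.24 ± 0.039 (adjusted p = 5.52e-06) with TBT and 0.27 ± 0.039 (adjusted p = 1.26e-06) with AGN194204. Timp2, which inhibits MMPs and takes part in the activation of Mmp2 by Mmp14, was at 502, 534 and 555 CPM in DMSO and 513, 539 and 565 with TBT. Its change had 95% intervals of -0.050 to 0.084 with TBT, -0.022 to 0.11 with AGN194204 and -0.085 to 0.049 with rosiglitazone, none past the threshold. Timp4 had 8 counts in all 24 libraries. The annotated spans of Timp1 and Timp3 overlap those of Syn1 and Syn3, and those of Adamts4, Adamts9 and Mmp19 overlap other tested genes. None of these 5 partners passed the threshold against DMSO.

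Of the other ADAMTS enzymes, Adamts12, which cuts cartilage oligomeric matrix protein, was at 1.69, 2.69 and 4.44 CPM in DMSO, 1.94, 2.40 and 3.43 with rosiglitazone, 2.91, 4.25 and 5.48 with AGN194204 and 4.08, 5.33 and 7.75 with TBT. The TBT change was 0.95 ± 0.23 (adjusted p = 0.00161) and the AGN194204 change 0.56 ± 0.24 (adjusted p = 0.0897). Adamts6, Adamts7 and Adamts10 passed with neither, and Adamts7 had -0.34 ± 0.14 (adjusted p = 0.0580) with TBT. Among 4 tested ADAMTS-like genes only Adamtsl3 changed, at 7.74, 8.07 and 12.6 CPM in DMSO, 3.23, 5.36 and 10.1 with rosiglitazone, 1.79, 4.41 and 6.53 with AGN194204 and 4.21, 5.83 and 7.25 with TBT. All AGN194204 and TBT libraries were below all DMSO libraries. It fell by 0.97 ± 0.23 on the log2 scale with AGN194204 (adjusted p = 0.00157) and by 0.57 ± 0.22 with TBT (adjusted p = 0.0485), and with rosiglitazone it was -0.55 ± 0.22 (adjusted p = 0.297). The TBT call was lost without DMSO replicate 4, the highest library (adjusted p = 0.157), and without replicate 1 or 5 (0.0592 and 0.0539). It was also lost with DESeq2 (adjusted p = 0.0712), with ERCC scaling (0.176), with a mean of at least 1 CPM as the filter (0.0537) and with the replicate block (0.0527).

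TBT and AGN194204 were compared directly, at 50 nM and 100 nM. No member passed the threshold (edgeR), 0 of 27 against 0.846% of all genes. At an unadjusted p under 0.05 there were 3 of 27, where 1269 of all 12529 genes passed, and DESeq2 called 0. The smallest unadjusted p were those of Mmp15, with a 95% interval of 0.022 to 1.58 on the log2 scale, Mmp19 (0.11 to 0.55) and Mmp23 (0.099 to 0.47), each above 0 before adjustment and with adjusted p of 0.470, 0.166 and 0.163. Mmp15 was tested only because 2 AGN194204 and 4 TBT libraries reached the count minimum. Adamtsl3 and Adamts12 had differences of 0.40 and 0.39 with intervals of -0.099 to 0.90 and -0.051 to 0.83. For Adamts14 the interval was -0.18 to 0.16 and for Timp3 -0.10 to 0.053. A missed threshold does not show that the treatments act alike. No member had all libraries of one treatment clear of the other, against 0.926% of genes.

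Against rosiglitazone, TBT raised 13 members and lowered 1, where 28.7% of all genes were called, and AGN194204 raised 10 and lowered 1, where 24.7% were called. The 13 include Mmp15, which reached the count minimum in 4 TBT libraries and in no rosiglitazone library. In the fit of TBT and rosiglitazone alone, where Mmp15 could not be tested, 12 of 23 members were higher with TBT. The member lowered by both treatments against rosiglitazone was Timp1, at -0.29 ± 0.051 (adjusted p = 3.07e-05) with TBT and -0.37 ± 0.052 (adjusted p = 7.80e-07) with AGN194204. With ERCC scaling the TBT value was -0.17 ± 0.066 (adjusted p = 0.0675), no longer past the threshold. By adjusted p the leading members with TBT were Mmp23 (0.94 ± 0.098), Adamts14 (0.84 ± 0.091), Timp3 (0.29 ± 0.039), Mmp28 (0.89 ± 0.14) and Adamts1 (0.31 ± 0.053). With AGN194204 they were Adamts14 (0.85 ± 0.091), Timp3 (0.31 ± 0.039), Timp1, Mmp23 (0.66 ± 0.10) and Mmp28 (0.88 ± 0.14). Libraries did not overlap for 9 members above and 1 below with TBT (12.2% of genes) and for 8 above and 1 below with AGN194204 (11.4%). These 2 comparisons share the rosiglitazone libraries.

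Other parts of the protease system were read from lists chosen with earlier results of these data known. Of 30 genes for pericellular proteolysis (serine proteases, their inhibitors and receptors), 19 were tested, and 8 rose and 3 fell with TBT, 6 rose with AGN194204 and 2 rose with rosiglitazone. These are 57.9%, 31.6% and 10.5% of those tested, where 28.9%, 24.1% and 1.04% of all genes were called. Htra3, a secreted serine protease that also cuts matrix proteins, rose from a mean of 9.73 CPM in DMSO to 50.3 with TBT and 42.8 with AGN194204, log2 fold changes of 2.36 ± 0.12 and 2.12 ± 0.12, and to 15.2 CPM with rosiglitazone (0.63 ± 0.15, adjusted p = 0.0164). Serpinf1, or PEDF, rose by 0.56 ± 0.043 with TBT and 0.40 ± 0.043 with AGN194204. Among 7 tested ADAM sheddases of 10, Adam15 rose with both (0.36 ± 0.057 and 0.22 ± 0.057) and Adam17, the main shedding enzyme for TNF, fell by 0.19 ± 0.070 with AGN194204. The share of sheddases called was 28.6% with TBT and with AGN194204, near the 28.9% and 24.1% of all genes, and 0% with rosiglitazone. Cathepsins, which work in lysosomes, rose in 4 of 8 tested with TBT and 5 of 8 with AGN194204 (50% and 62.5%). Over all genes 15% and 12.8% were higher, and no cathepsin was called with rosiglitazone. Ctsd rose by 0.21 with TBT and 0.22 with AGN194204.

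Matrix proteins that these enzymes cut moved in both directions. Of 25 substrates, 17 were tested, and 8 rose and 3 fell with TBT, 6 rose and 4 fell with AGN194204 and 1 rose with rosiglitazone. The shares called were 64.7%, 58.8% and 5.88%, against 28.9%, 24.1% and 1.04% of all genes. Dcn, the small collagen-binding proteoglycan decorin, named here after its values were seen, had a mean of 15.02 CPM in DMSO, 12.3 with rosiglitazone, 7.63 with AGN194204 and 5.17 with TBT. It fell by 1.53 ± 0.19 with TBT (adjusted p = 3e-08) and by 0.97 ± 0.18 with AGN194204 (adjusted p = 4.4e-05), and with rosiglitazone it was -0.29 ± 0.16 (adjusted p = 0.515). Nid1, a basement membrane linker, rose by 0.44 ± 0.030 with TBT and 0.40 ± 0.030 with AGN194204. The type IV collagen chain Col4a1 rose by 0.29 ± 0.031, 0.21 ± 0.031 and 0.14 ± 0.031 with TBT, AGN194204 and rosiglitazone. Vcan, the proteoglycan that Adamts1, Adamts4, Adamts5 and Adamts9 cut, fell by 0.45 ± 0.051 with AGN194204 and by 0.31 ± 0.050 with TBT, and was -0.12 ± 0.050 with rosiglitazone (adjusted p = 0.348). Of 18 transcription factors known to act on MMP genes, all were tested. With TBT 5 rose and 2 fell, with AGN194204 3 rose and 4 fell, and with rosiglitazone none was called. The share called was 38.9% with TBT and with AGN194204, against 28.9% and 24.1% of all genes. Egr1 rose with both TBT and AGN194204 (0.35 ± 0.046 and 0.30 ± 0.046), as did Junb (0.23 ± 0.053 and 0.26 ± 0.053). Ets2 fell with both (-0.32 ± 0.053 and -0.16 ± 0.052), as did Etv4 (-0.27 ± 0.053 and -0.25 ± 0.053).

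Chromatin at the 36 members with an annotated start was read as SICER islands within 1 kb of that start, and a mark was counted where at least 3 of 4 libraries had an island. H3K4me3, the mark of active or poised promoters, was present at all 18 tested members in both DMSO and TBT. It was present at 2 of 12 members under the minimum (Adamts17 and Adamtsl2) and at 0 of 6 with no read. Of all 9028 tested genes with a start, 95.8% carried it in DMSO and 95.9% in TBT. H3K27me3, the Polycomb mark of silent genes, was present at 8 of 36 members in DMSO and 10 of 36 in TBT. Over all 27025 genes with a start the shares were 10.6% and 14.4%, and members had 22.2% and 27.8%. Among tested members it was found at 4 of 18 in DMSO, where 4.49% of tested genes had it: Mmp15, Mmp24, Adamtsl3 and Adamtsl5 carried both marks. In TBT Adamts3 joined them, for 5 of 18 against 7.10% of tested genes.

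**Figure D3:**
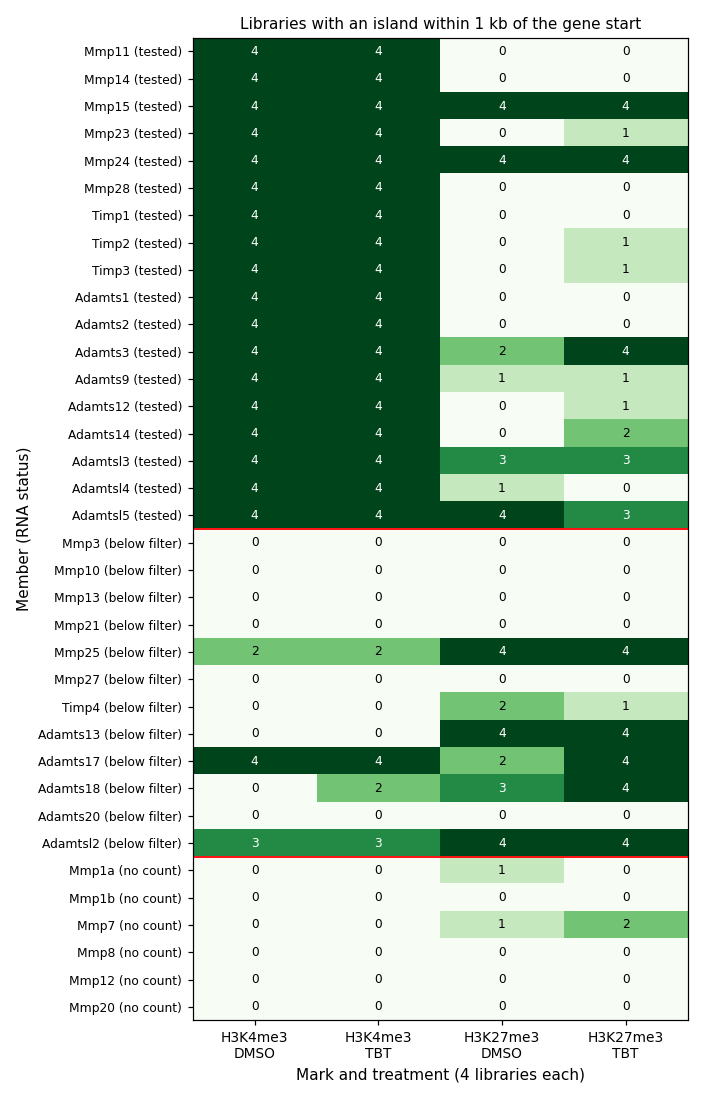
Number of libraries (0 to 4, in figures and shade) with an island within 1 kb of the start, for 36 members (rows, with RNA status) and each mark and treatment (columns); red lines divide tested members, members under the count minimum and members with no count. The H3K4me3 columns are at 4 for all 18 tested members and at 0 for the 6 members with no count.

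The Mmp cluster on chromosome 9 carried neither mark at its starts in any group by this rule. Of the 12 members under the minimum, 4 carried H3K27me3 in DMSO: Mmp25, Adamts13, Adamts18 and Adamtsl2. Gene spans with 1 kb on either side were read for all 51 members, since 15 had no start in the table. On that reading, chosen after seeing the data, H3K4me3 was found on all 27 tested members in both groups. An island anywhere in the span counts there, and the share over all genes was not computed. Mmp9 (chr2:164940326-164955850) had H3K27me3 in all 4 libraries of each group, over 95.4% to 100% of the span and its flanks in DMSO and 88.6% to 100% with TBT. The same span had H3K4me3 in all 8 libraries, over 19.8% to 38.1% in DMSO and 0.428% to 20.1% with TBT. Mmp2 had H3K27me3 in 3 of 4 DMSO and 4 of 4 TBT libraries, over at most 17.5% and 33.4% of its span.

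Between TBT and DMSO, the authors' deposited table of differential H3K4me3 peaks held 246 peaks, 222 higher in DMSO and 24 higher in TBT, and 1 member. That peak covered the start of Mmp15 (chr8:95343800-95360599), with a log2 concentration of 8.01 in DMSO and 8.62 in TBT and an FDR of 0.0103 in the authors' deposited table. The Mmp15 RNA reached the count minimum in 0 DMSO and 4 TBT libraries. On H3K4me3, 0.422% of all genes had such a peak, and on H3K27me3 5.78%. The authors' deposited table for H3K27me3 held 4329 peaks, of which 9 lay on 6 members: Adamts12, Adamts13, Adamts14, Adamts17, Adamts18 and Adamtsl1. At Adamts14 the peak over the start was higher with TBT (log2 concentration 2.45 in DMSO and 5.98 in TBT, FDR 0.00491, authors' deposited table), and its RNA was higher as well; 2 of 4 TBT libraries and no DMSO library had an island there. Within Adamts12, 3 peaks were lower with TBT in the authors' deposited table, by 4.37 to 5.29 on the log2 scale, and its RNA rose. Their log2 concentrations were 4.89 to 5.23 in DMSO and -0.22 to 0.86 in TBT, so the sizes of these falls rest on very low TBT values. Over the whole gene with its flanks, H3K27me3 islands went the other way. They covered 2.23% to 7.89% of Adamts12 in the 4 DMSO libraries and 8.10% to 17.1% in the 4 TBT libraries, without overlap. Such coverage moves with how much was called in a library. Over the genome, H3K27me3 islands covered 106400 to 166800 kb in the DMSO libraries and 154900 to 176900 kb in the TBT libraries. The share of all genes whose coverage did not overlap was not computed. No peak in the authors' deposited tables lay on Timp1, Timp2 or Timp3.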

How the data were processed

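The RNA libraries were strand-specific, from total RNA with ERCC spike-ins (integrity number 8.0 to 8.6), read as 75-nt pairs, per the labels. The authors deposited raw counts per gene symbol, and GRCm38, mm10, FastQC, STAR, SAMtools and DESeq2 are named in the submitters' processing notes without versions. The counting program and its use of strand are not given in the sources used here. Reads in no gene made up 20.9% to 24.3% of the counts and were left out. For each ChIP library the authors deposited islands with read counts, p-values, FDR and the fold (ratio) of ChIP over scaled input; SICER is named in the notes, and window (200 bp), gap (600 bp) and FDR (0.001) come from the file names. The authors deposited log2 concentrations, log2 fold and p-values of differential peaks, and DiffBind is named in the notes; these list only significant peaks.

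The members and lists were chosen with earlier results of these data known. Counts were tested with edgeR 4.0.16 in R 4.3.3 (TMM, filterByExpr with 10 counts, quasi-likelihood F test) in 1 fit of 24 libraries, Benjamini-Hochberg adjusted over 12529 genes with 0.05 as the threshold, and the code was tested on simulated data. Named members were the 10 with the smallest adjusted p past the threshold in each comparison with DMSO plus a set of well-studied members that passed the filter, and the 5 leading ones between treatments. Log2 fold changes carry the standard error of the fit. Starts came from the RefSeq promoter table, whose assembly, GRCm38.p6, is that of mm10. Alternatives were RLE and ERCC scaling, DESeq2 1.42.0, other filters, fits of the 2 groups alone, a replicate block, and other windows, overlaps and island thresholds. Sequencing runs are not given per library, so no within-run value was computed. A gene counted in the pericellular proteolysis list is not reported here by name.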

Additional observations from a re-analysis of the deposited data

Results flagged for a closer look

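In 64 sets of 6 libraries (16 members in 4 treatments), 4 held a library apart from the other 5 by Dixon's test, and chance flags about 1 set in 20. For Adamts2, DMSO replicate 1 was at 80.8 CPM and the other DMSO libraries at 97.9 to 103.2 CPM. For Adamts4, DMSO replicate 5 was at 4.22 CPM and the others at 7.99 to 9.78 CPM. For Adamtsl3, DMSO replicate 4 was at 12.6 CPM and the others at 7.74 to 8.20 CPM. For Timp2, rosiglitazone replicate 2 was at 508.1 CPM and the others at 523.6 to 530.8 CPM.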

How the results depend on the processing

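Called members kept their direction under every alternative run. ERCC scaling, under which the median log2 fold change of all genes was 0.084 for TBT against DMSO and 0.13 for TBT against rosiglitazone (-0.006 and -0.0028 with TMM), lowered members called lower to 0 for TBT against DMSO, rosiglitazone against DMSO and TBT against rosiglitazone, and members higher with AGN194204 to 5. DESeq2 and a mean of at least 1 CPM each left 0 members lower with rosiglitazone, as did leaving out DMSO replicate 4 or 5 or rosiglitazone replicate 2 (0 each, chosen after seeing the data). Without DMSO replicate 1, 4 or 5, members lower with TBT went to 1. With no filter, 4 members were lower with TBT, adding Adamts7 and Mmp9, and 2 with AGN194204 against rosiglitazone, adding Mmp3, while Adamts12 was lost there. Mmp9 was also called with DESeq2 (-1.25 ± 0.42, adjusted p = 0.0159). Mmp15 could not be tested in fits of 2 groups alone.

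Replicate numbers tied the libraries weakly at most. Over 36 same-number pairs the correlation of deviations was -0.046 to 0.12, with 2 over 0.1. Its median was 0.022, against -0.0058 for other numbers. Of 24 libraries, 8 correlated best with their own number, and the share by chance was not computed. Over all genes a replicate block called 113 higher and 110 lower with rosiglitazone, against 77 and 53 without it. For TBT against AGN194204 it called 86 and 83, against 51 and 55. Whether libraries of 1 number share a batch was not tested. With the replicate block 11 members rose and 2 fell with TBT, 10 and 2 with AGN194204, and 0 and 1 with rosiglitazone; 0 differed between TBT and AGN194204, and against rosiglitazone 13 rose and 1 fell with TBT and 10 and 1 with AGN194204. Adamts7 was gained and Adamtsl3 lost with TBT.

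Islands with an FDR of at most 1e-10 left H3K27me3 at 3 members in DMSO. On whole gene spans, chosen after seeing the data, H3K4me3 was found on 34 of 51 members in DMSO and 33 with TBT, and H3K27me3 on 21 and 23. Without the share over all genes read in this way, which was not computed, these counts cannot be set against other genes. Leaving out each ChIP library gave H3K27me3 at 8 to 11 members in DMSO and 10 to 11 with TBT. A mark then needed a majority of the remaining libraries, which is fewer than the 3 of the main reading. These ranges are therefore not like for like with the main counts. Members under the minimum had at most 168 counts over 24 libraries, which limits the precision of their values.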
